A study of Mus musculus with 8 samples.

Results

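The ErbB receptors and their ligands were examined in cardiomyocytes of newborn mice. The group was taken by symbol from the deposited counts and holds 10 genes of 48440 entries: the receptors Egfr, Erbb2, Erbb3 and Erbb4, the neuregulins Nrg1, Nrg2 and Nrg4, and the ligands Hbegf, Btc and Tgfa. The 8 libraries came from purified cardiomyocytes of C57BL6/J pups on postnatal day 2, 1 male and 1 female heart from each of 4 litters, so that there were 4 males and 4 females. All pups were of that single strain, and the labels name no treatment or allele. Both the sexes and the litters can be compared, with 4 libraries per sex and 2 per litter.

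ErbB receptors are tyrosine kinases that pair up when a ligand binds. ErbB2 binds no known ligand itself and serves as the preferred partner of the others, ErbB3 binds neuregulins but has a nearly inactive kinase, and ErbB4 both binds neuregulins and signals. In the heart, neuregulin-1 is made mainly by endothelial and endocardial cells and acts on ErbB4 and ErbB2 of the cardiomyocyte, a route needed for trabeculation and known for its effect on growth and division of newborn cardiomyocytes. HB-EGF, betacellulin and TGF-alpha are made as membrane-bound precursors, bind EGFR, and in the case of HB-EGF and betacellulin also ErbB4.

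Erbb4, the receptor gene with the clearest difference between litters, and its partner Erbb2 are shown here by the 250 bases before their RefSeq start sites (GRCm38.p6), 5′ to 3′ on the gene's own strand. The Erbb4 stretch lies at chr1:69108060-69108309 on the minus strand and that of Erbb2 at chr11:98412234-98412483 on the plus strand. Capitals mark matches to a CCAAT box (CCAAT) or an E-box (CANNTG) on either strand.
Erbb4: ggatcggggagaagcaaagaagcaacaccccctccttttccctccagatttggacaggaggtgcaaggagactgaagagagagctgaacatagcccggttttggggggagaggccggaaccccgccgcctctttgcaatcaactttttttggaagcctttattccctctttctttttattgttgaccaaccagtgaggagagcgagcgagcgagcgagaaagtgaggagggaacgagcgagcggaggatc
Erbb2: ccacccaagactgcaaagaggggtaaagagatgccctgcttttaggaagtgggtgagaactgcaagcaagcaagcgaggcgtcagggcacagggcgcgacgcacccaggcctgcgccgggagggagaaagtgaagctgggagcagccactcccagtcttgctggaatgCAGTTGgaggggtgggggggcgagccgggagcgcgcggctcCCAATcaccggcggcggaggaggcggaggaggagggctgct
The Erbb2 stretch held 1 CCAAT box, starting 41 bases before the start site, and 1 E-box, starting 82 bases before it, which do not overlap. Of 32851 promoter stretches of the same length, 33.8% held a CCAAT box and 66.2% an E-box. Neither stretch held the letters of a GC box (GGGCGG, in 32.7% of promoters), a TATA box (TATAAA, 12.4%), a cAMP response element (TGACGTCA, 1.55%) or an AP-1 site (TGANTCA, 6.75%), and that of Erbb4 held no CCAAT box or E-box either. GC content was 54.0% for Erbb4 and 66.0% for Erbb2, against a median of 52.4% over all stretches. Of the 10 genes, 6 have a promoter in the table used.

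Libraries held between 14226342 and 24910243 counts, and all 8 had Xist and Ddx3y levels in the order of their labelled sex. Levels are given as CPM, counts scaled to library size and composition. The cardiomyocyte markers Myh6, Actc1, Tnnt2, Tnni3, Ryr2, Actn2, Myl3, Pln and Ttn summed to between 62776 and 84146 CPM, so the labelled cell type was present in every library. Markers of other cells were low but not absent, with sums over 10 genes each of 18.8 to 160 CPM for endothelial cells and 42.1 to 268 CPM for fibroblasts. Litter 3 stood apart in several of these sums. Its cardiomyocyte sum was 62776 and 64434 CPM against 73064 to 84146 CPM in the other 6 libraries. Of the 9 cardiomyocyte markers, Myh6, Actc1, Actn2 and Myl3 were lower in litter 3 at an edgeR adjusted p-value under 0.05. The other 5 did not pass, where 14.8% of all genes were lower. Tnnt2 had 12747 and 13336 CPM in litter 3 against 11558 to 13434 CPM elsewhere, and Pln 6440 and 6446 against 5585 to 6719 CPM. The fibroblast sum of litter 3 was 42.1 and 61.6 CPM against 125 to 268 CPM. In bulk RNA, fewer cells of a type and less RNA per cell cannot be told apart.

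Set per kilobase of annotated exon, so that genes can be compared, the receptors Erbb2, Erbb4 and Erbb3 ranked above every ligand. Erbb2 on chromosome 11 (98412470 to 98437716, plus strand, 27 exons in its longest transcript) had 11.7 ± 1.40 CPM per kb (SD, n = 8). Erbb4 on chromosome 1 (68032186 to 69108059, minus strand, 27 exons) had 4.14 ± 1.40 CPM per kb, and Erbb3 on chromosome 10 (128567523 to 128589652, minus strand, 28 exons) had 3.26 ± 0.360 CPM per kb. Among ligands, Hbegf on chromosome 18 led with 3.01 ± 0.377 CPM per kb, followed by Btc on chromosome 5 with 0.809 ± 0.161 and Tgfa on chromosome 6 with 0.653 ± 0.119 CPM per kb. The neuregulins were far lower, with 0.191 ± 0.0762 CPM per kb for Nrg2 on chromosome 18, 0.0924 ± 0.0204 for Nrg4 on chromosome 9 and 0.0406 ± 0.0309 for Nrg1 on chromosome 8. Egfr on chromosome 11 was the lowest of the 10, at 0.0206 ± 0.0130 CPM per kb.

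**Figure D1:**
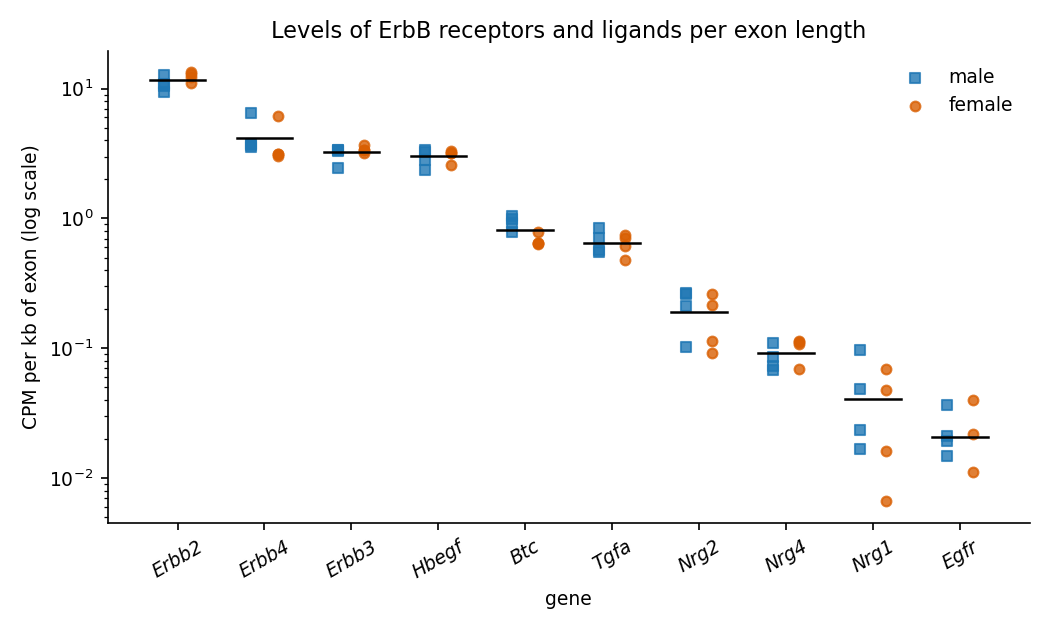
Level of each gene in CPM per kb of exon (log axis), with squares for the 4 male and circles for the 4 female libraries and a bar at the mean of the 8. Erbb2 stands above all others in every library, and the neuregulins and Egfr lie lowest; the female of litter 3, at 0 counts of Egfr, cannot be drawn on this axis.

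The order of these levels was clear at some steps and not at others. Erbb2 was above Erbb4, Hbegf above Btc and Tgfa above Nrg2 in all 8 libraries, without overlap of their ranges. Erbb4 was above Erbb3 in 5 of 8 libraries, and the ranges of Erbb3 and Hbegf, of Btc and Tgfa, and of each neighbouring pair from Nrg2 down to Egfr overlapped. Part of the order also hangs on the length used. Per kilobase of the longest transcript, Hbegf had 5.03 CPM per kb and stood above Erbb4 (4.25) and Erbb3 (3.26), Tgfa (0.936) stood above Btc (0.908), and Nrg4 (0.268) above Nrg2 (0.196).

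As shares of the summed receptor level per kilobase, Erbb2 took 56.3 to 66.7%, Erbb4 16.1 to 28.9%, Erbb3 14.1 to 20.6% and Egfr 0 to 0.212%. The 2 highest Erbb4 shares were those of litter 3, 28.9% (male) and 27.1% (female). Egfr, the receptor of the EGF-type ligands, had 6, 10, 5 and 3 counts in the males of litters 1 to 4 and 6, 10, 0 and 3 in the females. At 0 counts, the female of litter 3 allows a level of up to 0.206 CPM, counting error only. With so few counts Egfr did not pass the filter on low counts, and the other 9 genes were tested.

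The first comparison asked whether litters differ in these genes. Of the 9 tested genes, 2 differed between litters in edgeR's quasi-likelihood test, Erbb4 and Nrg1, against 32.1% of all 13771 genes tested, so the share of members was no larger than the background. They are among the highest and the lowest of the group in level. Erbb4 had 44.1, 46.7, 80.7 and 45.9 CPM in the males of litters 1 to 4 and 39.1, 37.3, 76.2 and 38.9 CPM in the females. Both libraries of litter 3 were high, and the other 6 lay between 37.3 and 46.7 CPM with no overlap.

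Litter means of Erbb4 were 41.6 ± 3.54, 42.0 ± 6.60, 78.5 ± 3.15 and 42.4 ± 4.98 CPM (SD, n = 2), and the edgeR adjusted p-value of the litter test was 2.25e-05, a p that 0.552% of all genes matched or undercut. Against the mean of the other 3 litters, Erbb4 rose 1.87-fold in litter 3, a log2 difference of 0.90 (SE 0.07, edgeR adjusted p = 3.03e-06). In this comparison 28.3% of all genes passed, 13.6% higher and 14.8% lower, and 1.71% were at least as far above the other litters as Erbb4. Both libraries of litter 3 were above the other 6 for 15.1% of all genes. Leaving out any 1 library left the log2 difference of litter 3 between 0.82 and 0.99, with adjusted p-values up to 0.00012. Without litter 3, the range of Erbb4 over litters was 0.02 on the log2 scale, with an adjusted p-value of 0.975. Erbb4 was also called lower in litters 1, 2 and 4, with log2 differences of -0.32, -0.30 and -0.28, in comparisons where 5.41%, 0.879% and 5.8% of all genes were lower and 7.86%, 3.3% and 4.71% higher. Each of these is taken against a mean that includes litter 3, and each call was lost without one or more single libraries, with adjusted p-values of up to 0.191, 0.382 and 0.155.

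Erbb2, the partner of ErbB4, stayed within a narrower band. It had 56.8, 54.3, 66.4 and 49.4 CPM in the males of litters 1 to 4 and 57.5, 64.3, 69.8 and 67.9 CPM in the females, so that litter 3 overlapped the other litters. Its log2 difference in litter 3 was 0.23 (SE 0.08, edgeR adjusted p = 0.0563). This was over the threshold, but the outcome depended on the processing, with adjusted p-values of 0.0298 with library size alone and 0.0172 without a filter. Leaving out any 1 library left the log2 difference between 0.14 and 0.31. The ratio of Erbb4 to Erbb2 per kilobase was 0.513 (male) and 0.460 (female) for litter 3, and 0.241 to 0.392 in the other 6 libraries. Erbb3 had 19.9, 20.4, 20.1 and 14.7 CPM in the males and 22.3, 20.1, 19.3 and 20.1 CPM in the females. Its lowest value was that of the male of litter 4, and its log2 difference in litter 3 was 0.02 (SE 0.10, adjusted p = 0.900).

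**Figure D2:**
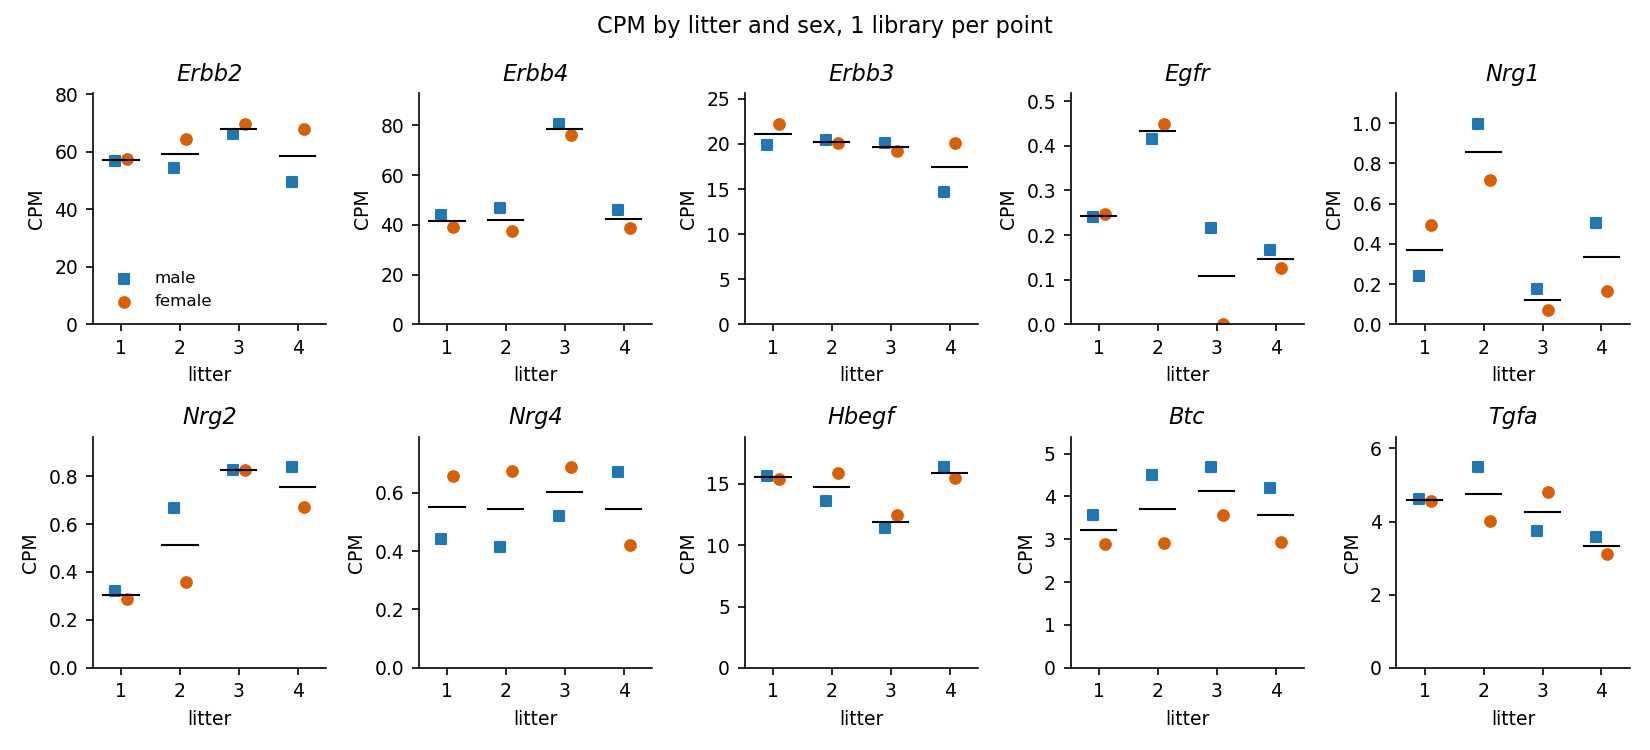
CPM of each of the 10 genes by litter, with squares for males, circles for females and a bar at the mean of the 2 libraries; each panel has its own axis from 0. Erbb4 stands at 76.2 and 80.7 CPM in litter 3 and at 37.3 to 46.7 CPM elsewhere, while Erbb2 and Erbb3 overlap between litters.

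Hbegf, whose product binds EGFR and ErbB4, had 15.7, 13.6, 11.4 and 16.4 CPM in the males of litters 1 to 4 and 15.4, 15.9, 12.5 and 15.4 CPM in the females. Both libraries of litter 3 were below the other 6, which held for 16.4% of all genes. In litter 3 it fell by 0.37 on the log2 scale (SE 0.10, edgeR adjusted p = 0.0170), while the test over all 4 litters gave 0.0576, or 0.0296 without litter 2. Without the male or the female of litter 3, the adjusted p-value of that difference was over the threshold, at 0.164 and 0.0761. Erbb4 and Hbegf were thus the 2 of 9 genes called in litter 3, 1 higher and 1 lower, a share no larger than the 28.3% of all genes.

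Nrg1, the neuregulin that drives ErbB4 and ErbB2 signalling in the heart, was near the limit of these libraries. It had 6, 24, 4 and 9 counts in the males of litters 1 to 4 and 12, 16, 1 and 4 in the females. These make 0.241, 0.998, 0.174 and 0.503 CPM in the males and 0.494, 0.720, 0.0688 and 0.168 CPM in the females. Both libraries of litter 2 were above the other 6, as were those of 4.79% of all genes. The range over litters was 2.69 on the log2 scale (edgeR adjusted p = 0.0365), and in litter 2 Nrg1 was higher by 1.77 (SE 0.44, adjusted p = 0.0466), in a comparison where 4.18% of all genes passed. The litter test lost the call without litter 2 (0.331) or litter 3 (0.160), and without either the male or the female of either litter, with adjusted p-values of up to 0.197. For litter 2 alone, the call held without the female of litter 1 (0.0170) or the male of litter 4 (0.0338) and was lost without any of the other 6 libraries, with adjusted p-values of up to 0.318. In litter 3 Nrg1 had a log2 difference of -1.81 (SE 0.67, adjusted p = 0.0609), which passed without the male of litter 1 (0.0242), the female of litter 4 (0.0403) or the filter (0.0447).

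Markers of the cells known to make neuregulin-1 were also high in litter 2. The 10 endothelial markers, all tested, summed to 18.8, 89.1, 21.7 and 33.5 CPM in the males of litters 1 to 4 and to 68.1, 160, 24.6 and 28.3 CPM in the females, and 10 of 10 were called higher in litter 2. The 4 endocardial markers summed to 29.4 and 29.0 CPM for litter 2, against 8.59 to 15.6 CPM for the rest, and 2 of the 3 tested were called higher there. Fibroblast markers summed to 268 and 174 CPM in litter 2 and to between 42.1 and 253 CPM elsewhere. Of these 10, 8 were called higher in litter 2, 8 in litter 4 and 3 in litter 1. Of 8 mural (vessel wall) markers, 4 were called higher in litter 2. Over all genes, 3.3% were higher in litter 2, 4.71% in litter 4 and 7.86% in litter 1. Nrg1 had log2 differences of -0.12 in litter 4 and 0.17 in litter 1 and was not called in either. In litter 3, 8 fibroblast, 6 endothelial, 2 endocardial and 5 mural markers were called lower, against 14.8% of all genes. No endothelial marker was at 0 in all libraries, and the part of any of these cells in the level of Nrg1 was not tested.

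**Figure D3:**
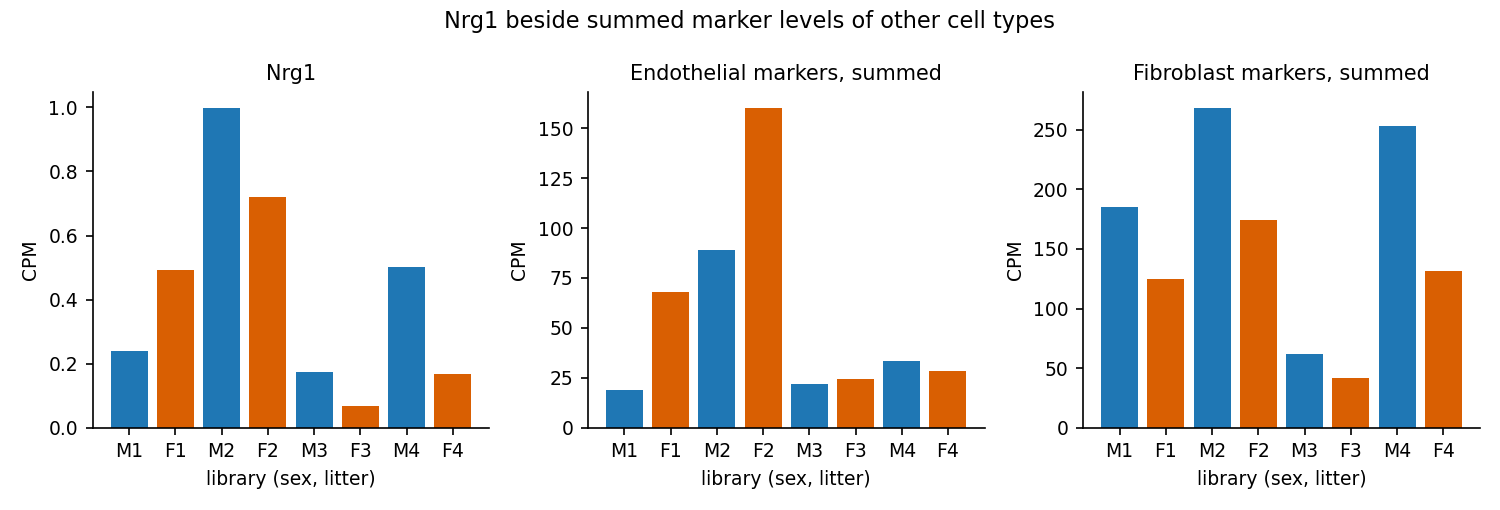
CPM of Nrg1 (left) and summed CPM of 10 endothelial (middle) and 10 fibroblast markers (right) in each library, M for male and F for female with the litter number, bars from 0. Nrg1 peaks at 0.998 and 0.720 CPM in litter 2, where the endothelial sum also peaks at 89.1 and 160 CPM.

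The remaining ligands were not called in any litter. Nrg2 had 8, 16, 19 and 15 counts in the males of litters 1 to 4 and 7, 8, 12 and 16 in the females, with log2 differences of -1.14 in litter 1 (SE 0.39, edgeR adjusted p = 0.0746) and 0.72 in litter 3 (SE 0.35, adjusted p = 0.144). Nrg4, a neuregulin that binds ErbB4, had 10 to 16 counts in every library and a range over litters of 0.17 on the log2 scale (adjusted p = 0.988). Of its exon bases, 6.06% overlap Fbxo22 on the opposite strand, which had up to 1126 counts, and whether counting used strand is not given, so its level is uncertain. Btc had log2 differences from -0.22 to 0.24 and Tgfa from -0.44 to 0.24 between single litters and the rest, none past the threshold. Of the 5 other EGF family ligands, Egf alone was tested, at 8.10 to 15.3 CPM with no call by litter (adjusted p = 0.306). Epgn had 2 to 6 counts, Areg and Ereg at most 2 counts and Nrg3 had 0 in every library.

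The second comparison was between the sexes. None of the 9 genes passed edgeR's test of sex, with 1 at an unadjusted p-value under 0.05, against 2.22% of all genes, and none passed in DESeq2, again with 1 unadjusted. Over all genes 0.0436% passed in edgeR. The values of males and females overlapped for all 10, while 2.07% of all genes had no overlap. Of the 9, Erbb4 and Btc had the higher value and Erbb2 the lower one in each male compared with its female littermate, where 10.9% of all genes were higher and 9.36% lower in all 4. When litter entered as a block, so that littermates are compared, none passed either, against 0.211% of all genes. At an unadjusted p-value under 0.05 there were then 3 of the 9, these same 3, against 11.6% of all genes.

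Btc, the gene of betacellulin, had 3.57, 4.49, 4.69 and 4.19 CPM in the males of litters 1 to 4 and 2.88, 2.92, 3.58 and 2.94 CPM in the females. The highest female value, in litter 3, just overlapped the lowest male value, in litter 1. Males averaged 4.23 ± 0.486 CPM and females 3.08 ± 0.333 CPM (SD, n = 4 each), with a log2 difference of 0.46 (SE 0.17, edgeR unadjusted p = 0.0191, adjusted p = 1.00). With the litter block it was 0.46 (SE 0.15, adjusted p = 0.300). A list of 9 atrial markers, chosen after the values were seen, had a median log2 difference of 1.01 between the sexes, with 7 of 9 means higher in males. In edgeR's test of sex without the block, 5 had an unadjusted p-value under 0.05, against 2.22% of all genes, and none passed the threshold. Myl7, the atrial myosin light chain, had 41.5, 152, 36.0 and 59.5 CPM in the males and 24.6, 6.97, 18.3 and 42.4 CPM in the females. The sum of the 9 atrial markers was higher in the male of 3 litters. In litter 3 it was 1349 CPM in the male and 1654 CPM in the female, both above the 246 to 875 CPM of the other litters. Other markers also differed in direction between the sexes. Fibroblast markers had 10 of 10 means higher in males, with a median log2 difference of 0.70 and a sum higher in the male of all 4 litters, and 0 were called without and 5 with the litter block. Endothelial markers had 0 of 10 means higher in males and a median of -0.72, with 0 called without and 1 with the block. Over all genes, 0.0436% were called by sex without the block and 0.211% with it. The part of atrial, fibroblast or endothelial cells in the level of Btc was not tested.

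Male to female ratios of Erbb4 from litter 1 to litter 4 were 1.13, 1.25, 1.06 and 1.18, while Erbb2 had 0.987, 0.844, 0.950 and 0.728. With the litter block, Erbb4 had a log2 difference of 0.20 (SE 0.06, edgeR adjusted p = 0.295) and Erbb2 one of -0.20 (SE 0.07, adjusted p = 0.355). Without the block they were 0.19 (SE 0.26) and -0.19 (SE 0.10), both with an adjusted p-value of 1.00. With Erbb4 higher and Erbb2 lower in each male, their ratio per kilobase is bound to be higher there and adds no separate observation. It was 0.328 against 0.287, 0.363 against 0.245, 0.513 against 0.460 and 0.392 against 0.241. Erbb3 was higher in the male in 2 of 4 litters, Hbegf in 2, Tgfa, Nrg1 and Nrg2 in 3 and Nrg4 in 1.

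**Figure D4:**
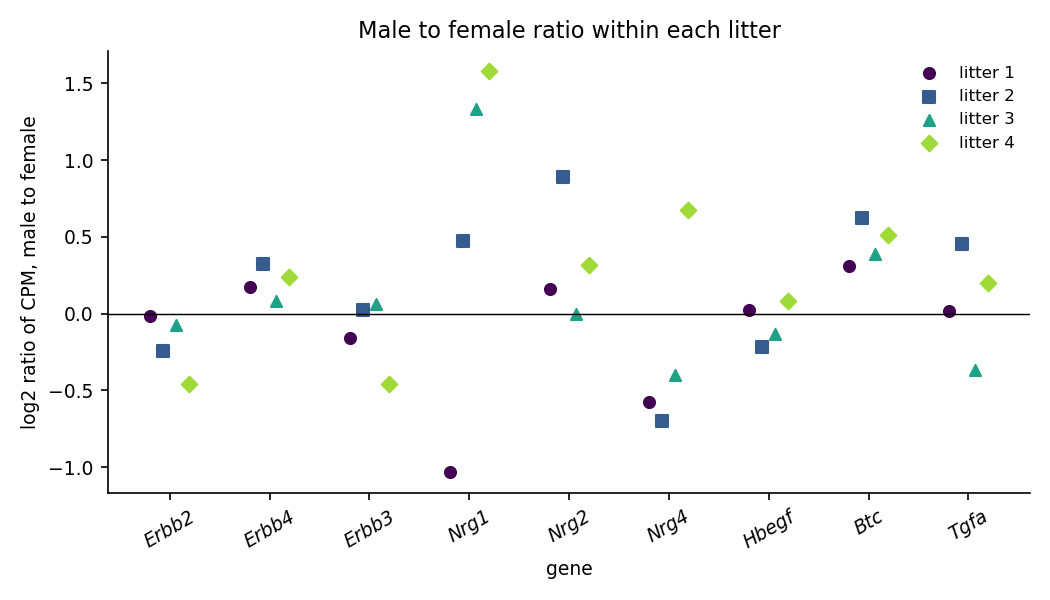
Log2 ratio of CPM, male to female, within each litter for the 9 tested genes, with a marker for each litter and a line at equal levels. The 4 points of Erbb4 and of Btc lie above the line and those of Erbb2 below it; the spread of Nrg1 rests on 1 to 24 counts per library.

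Genes that act on or after these receptors were then followed in litter 3. Proteases and other genes of ligand processing had 12 of 14 listed genes tested, of which 4 differed between litters (32.1% of all genes) and 2 were higher and 0 lower in litter 3 (13.6% and 14.8% of all genes), so the shares by litter and higher were near the background. The calls by litter were 2 without the female of litter 1, and those higher in litter 3 ran from 0, without its own female, to 3. The median log2 difference was 0.08, against 0.00 over all genes. The higher ones were Furin, a convertase that trims precursor proteins (0.22, SE 0.07, edgeR adjusted p = 0.0381, lost without any of 6 single libraries, at up to 0.242), and Timp3, an inhibitor of shedding proteases (0.83, adjusted p = 0.00759), the latter named after its values were seen. Adam19, a protease that can shed neuregulins, had 83.6 to 156 CPM and a range over litters of 0.62 (adjusted p = 0.0139), with its lowest level in litter 4 and no call without the female of that litter (0.0859). Adam15 had 4.99 and 14.0 CPM in litter 2 and 0.923 to 3.83 CPM elsewhere (adjusted p = 0.00561, and over the threshold without the female of litter 2, at 0.147).

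Adaptors and kinases that carry the signal were all measured. Of 30 genes tested, 13 differed between litters, and in litter 3 9 were higher, 6 lower and 15 were not called, with a median of 0.00. Over all genes the shares were 32.1% by litter and 13.6% higher and 14.8% lower in litter 3. By litter, 6 were called without the female of litter 1 and 6 without that of litter 3. Pik3r1, the regulatory subunit of PI3 kinase, had 74.6 and 88.4 CPM in litter 3 and 51.4 to 69.8 CPM elsewhere, a log2 difference of 0.38 (SE 0.07, edgeR adjusted p = 0.00283). Braf, a kinase between RAS and MEK, was higher by 0.29 (SE 0.06, adjusted p = 0.00605) and Pdpk1, which activates AKT, by 0.25 (SE 0.06, adjusted p = 0.0109). The same 3 genes were lower in litter 4, by 0.45, 0.51 and 0.41 on the log2 scale (adjusted p = 0.00606, 0.00216 and 0.00484). The mean that litter 3 was set against includes litter 4. Without litter 4, edgeR's litter test called none of these 3 genes, with adjusted p-values of 0.0633, 0.254 and 0.238. Their log2 ranges over litters were then 0.27, 0.16 and 0.16. Without litter 3, the litter test still called all 3 (adjusted p = 0.0156, 0.00551 and 0.0155). The counts in litter 3 became 4 higher and 3 lower without its male and 0 in each direction without its female. The 3 named genes all lost the call without that female, with adjusted p-values of 0.121 for Pik3r1, 0.0687 for Braf and 0.179 for Pdpk1, and Braf also lost it without the male. Library size alone gave 10 higher and 3 lower.

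Among 15 listed genes that restrain or stabilise the receptors, 13 were tested, 3 differed between litters and 2 were higher and 0 lower in litter 3, with a median of 0.01. Over all genes 32.1% differed by litter and 13.6% were higher in litter 3, so these shares were below and near the background, and without any library but the female of litter 4 there was 1 gene higher. Erbb2ip encodes Erbin, a scaffold that binds ErbB2. It had 170 and 157 CPM in litter 3 against 100 to 129 CPM elsewhere, a log2 difference of 0.47 (SE 0.06, edgeR adjusted p = 0.000139). The other was Lrig2, named after its values were seen. Cbl, a ubiquitin ligase that removes activated receptors, had 37.8 and 39.2 CPM in litter 4 and 46.9 to 53.7 CPM elsewhere (litter test, adjusted p = 0.00683), but the call was lost without the male of that litter (0.0615). Cblb had a range of 0.35 (adjusted p = 0.0494), lost without any of 5 single libraries, at up to 0.187.

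Genes switched on by ERK, the kinase at the end of the RAS route, and its feedback inhibitors were taken last. Of 18 tested genes 12 differed between litters, against 32.1% of all genes, and in litter 3 6 were higher and 2 lower (13.6% and 14.8% of all genes), with a median of 0.25. By litter there were 6 calls without the female of litter 4, 6 without litter 3 and 6 without litter 4, and 7 without a sex term. Egr1 had 446 and 373 CPM in litter 3 and 63.7 to 187 CPM elsewhere, a log2 difference of 1.94 (SE 0.13, edgeR adjusted p = 1.61e-06), and Fos rose by 1.93 (SE 0.13, adjusted p = 1.92e-06). Both are immediate-early genes that many stimuli induce within minutes, among them the dissociation of tissue. Dusp6 and Spry2, feedback inhibitors named after their values were seen, were higher by 1.02 (adjusted p = 0.00136) and 0.51 (adjusted p = 0.000261). Ccnd1, the cyclin D1 gene, was lower by 0.93 on the log2 scale (SE 0.25, adjusted p = 0.0153) and highest in litter 2, at 8.36 and 11.8 CPM. Its call in litter 3 was lost without the female of that litter (0.165). The other lower gene was Ier3, and without that female neither was called lower.

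**Figure D5:**
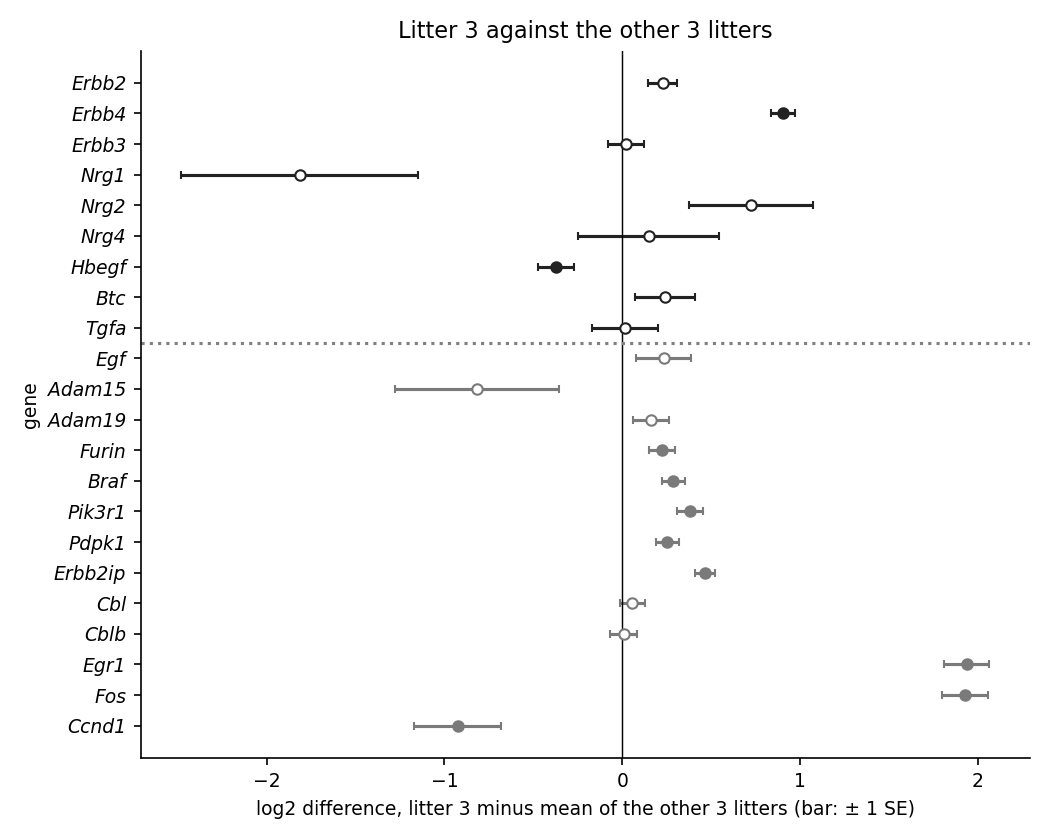
Log2 difference of litter 3 from the mean of the other 3 litters, with bars of 1 SE, for the 9 tested receptors and ligands (above the dotted line) and the named genes of the pathway lists (below it); filled points have an adjusted p-value under 0.05. Erbb4 stands at 0.90 and Hbegf at -0.37, while Egr1 and Fos reach 1.94 and 1.93.

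Among 11158 genes with a mean of at least 50 counts, those most like each member over the 8 libraries were found by Pearson's r of log2 CPM, given as a description, since the libraries of a litter are not independent and litter 3 weighs on all of them. For Erbb4 they were Fbxl5 (r = 0.998, n = 8), Dpysl3 (0.985) and Uri1 (0.982). Fbxl5 had 82.2 and 79.7 CPM in litter 3 and 48.3 to 56.3 CPM elsewhere, and as with Erbb4 both libraries of litter 3 were above the other 6. For Erbb2 they were Hnrnpl (0.955), Akap8l (0.955) and Rnf207 (0.952), for Erbb3 Adar (0.967), Myo18a (0.955) and Trim39 (0.951), and for Hbegf Hmces (0.985), Cptp (0.981) and Psmc5 (0.975). Tgfa was most like Hmcn1 (0.982), Stxbp4 (0.961) and Smc5 (0.952). Among the genes most like Btc were Vcan (0.932) and Cdc14b (0.931).

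Erbb3 is best known from Schwann cells and the neural crest, so their markers were set beside it. Sox10 had 0 to 4 counts and Cdh19 0 to 4 in the 8 libraries. Of the 9 listed Schwann cell and neural markers, 8 had a mean under 1 CPM. Erbb3, at 263 to 541 counts per library, thus stood beside Sox10 and Cdh19 near 0.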

How the data were processed

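RNA of purified cardiomyocytes was sequenced in 8 libraries. The authors deposited 1 table of raw counts per gene symbol and library, with 48440 entries. The submitters' processing notes name STAR 2.7.3a and the build mm10, while the counting program, annotation and strand setting are not given in the sources used here. The labels' protocols name a stranded total RNA kit, and the molecule field names poly(A) RNA.

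Counts were analysed in R 4.3.3 with edgeR 4.0.16 and, as an alternative, DESeq2 1.42.0. filterByExpr on sex kept 13771 genes, including 9 of the 10 members; TMM scaled the libraries. Sex was tested by the quasi-likelihood F test without litter, which leaves 6 residual degrees of freedom, and litter with sex as a term, which leaves 3. P-values were adjusted by Benjamini-Hochberg over all genes tested, with a threshold of 0.05. SE is the log2 difference divided by the square root of F. Exon lengths and positions came from GENCODE M21 on GRCm38, the assembly called mm10, and promoters from RefSeq (GRCm38.p6). The edgeR tests of sex without litter, of litter, and of litter 3 against the rest were tried on simulated data. Each was tried in a single simulated data set. The share of false calls was just over the threshold for sex and for litter 3, and far over it for the litter test. The simulated data for sex held no litter differences, and the tests with a litter block or by DESeq2 were not simulated.

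Litter numbers pair the samples per the labels, and after removal of sex means the male and female of a litter correlated across genes at 0.367 to 0.696, against -0.482 to 0.270 for other pairs. Members, lists and the naming rule (all members, and per list up to 3 genes with the smallest adjusted p in the litter test, otherwise the highest level) were chosen with earlier results of these data known; the atrial list was added last. Some genes that the rule or the marker lists name are not reported here. Of 152 other listed genes, 150 are in the table under the symbols used, and the 2 others are second symbols of genes already listed.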

Additional observations from a re-analysis of the deposited data

Results flagged for a closer look

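Within the 4 males and within the 4 females, the extreme library was set against the other 3, for the 10 receptors and ligands and the tested named pathway genes. A library far outside the other 3 was found in 8 of 46 groups, and the groups share their libraries. Chance alone flags about 1 in 20, but the share flagged over all genes is not given here. Most of the named pathway genes were also picked for a small p-value in the litter test, so the flags are a description only. Over all genes, both libraries of litter 3 lay above the other 6 for 15.1% and below them for 16.4%. For Erbb4 this was litter 3 both times, with 80.7 CPM among males (others 44.1 to 46.7 CPM) and 76.2 CPM among females (others 37.3 to 39.1 CPM). In the female of litter 3, Hbegf was low at 12.5 CPM (others 15.4 to 15.9 CPM) and Btc high at 3.58 CPM (others 2.88 to 2.94 CPM). In the male of litter 4, Erbb3 was low at 14.7 CPM (others 19.9 to 20.4 CPM), as was Cbl at 37.8 CPM (others 50.8 to 53.4 CPM). Nrg4 in the female of litter 4 was at 0.420 CPM (others 0.658 to 0.688 CPM), a gap of a few counts. Egr1 in the male of litter 3 was at 446 CPM (others 63.7 to 129 CPM).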

How the results depend on the processing

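Erbb4 was called between litters under every alternative run except without litter 3. The members called by sex were 0 under every alternative. The replicate block gave 29 genes called by sex against 6 without it, and 25, 20, 37 and 23 with the block and without litters 1 to 4; it changed no member's call. The 1 reversed value outside single libraries was the sex difference of Tgfa, -0.061 with the block and without litter 2. Genes called by litter fell from 4427 to 1797 without litter 3. Members called by litter were 1 with a mean of at least 50 counts, which does not test Nrg1, 1 with DESeq2, which gave Nrg1 no adjusted p, 1 without a sex term and 0 without litter 3. Against the rest, without a sex term the members called in litters 1, 2 and 4 were 0 each; litter 2 had 1 with a mean of at least 50 counts, and litter 3 had 4 without a filter (Erbb4, Hbegf, Erbb2 and Nrg1). Per kilobase of the longest transcript, Nrg1 had 0.0777, Nrg4 0.268, Hbegf 5.03 and Tgfa 0.936 CPM per kb.

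Without 1 library, members called ran from 1 to 3 by litter, 0 to 1 in litter 1, 0 to 1 in litter 2, 1 to 4 in litter 3 and 0 to 1 in litter 4, genes called by litter from 2888 to 3986 and those called in litter 3 from 1661 to 3811. A litter left with 1 library is assumed to vary like the others. Sex differences crossed 0 for Erbb4 (-0.064 to 0.50), Nrg1 (-0.35 to 0.85), Hbegf (-0.13 to 0.036) and Tgfa (-0.046 to 0.16). Litter 3 differences crossed 0 for Erbb3 (-0.11 to 0.14), Tgfa (-0.27 to 0.32), Nrg4 (-0.038 to 0.37), Egf (-0.012 to 0.45), Adam19 (-0.063 to 0.38) and Cblb (-0.088 to 0.094). The cause was not tested. Counts of 0 to 24 per library limit Nrg1, Nrg2, Nrg4 and Egfr. Without a filter the adjusted p-value of Erbb4 in edgeR's litter test was far smaller (3.37e-29), while those of Nrg2 (0.140), Btc (0.828) and Erbb3 (0.315) were larger.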
